A study of Mus musculus with 6 samples.

Results

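The genes described here are 10 genes of osteoclast precursors and of osteoclast fusion and bone resorption: Tnfrsf11a, Oscar, Calcr, Nfatc1, Dcstamp, Ocstamp, Itgb3, Acp5, Mmp9 and Car2. They were taken by gene symbol, each matching 1 row, out of the 56636 rows of the deposited table; the rule uses names only, and the names were put together with earlier results of these data known. RAW264.7, a wild-type mouse macrophage-like line, was cultured for 24 h with vehicle (3 libraries) or with an agent labelled 25-HC (3 libraries), an abbreviation the labels leave unexpanded, and its RNA was sequenced. The labels used here give neither the dose nor the vehicle, name no RANKL, and do not say whether the libraries came from separate cultures, so a p-value here reflects library-to-library spread that may be technical. In bulk RNA, fewer cells of a type and less RNA per cell cannot be told apart. The series title places the experiment in work on miR-9-5p from tumour cells and cholesterol homeostasis, and the 2 groups ask what 25-HC does to transcript levels.

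Osteoclasts are multinucleated cells that resorb bone and arise by fusion of precursors of the monocyte and macrophage lineage. The cytokine RANKL binds its receptor RANK on the precursor, co-receptors that signal through ITAM adaptors raise calcium, and the transcription factor NFATc1 then switches on the genes for fusion, attachment and resorption. RAW264.7 cells carry RANK and form osteoclasts when given RANKL, which makes the line a common precursor model.

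Values are TPM, a measure of transcript abundance scaled for transcript length and brought to the same total in every library, so sequencing depth is unknown. The 3 vehicle libraries were far apart and the 25-HC libraries close together: 11238, 9492 and 11994 genes reached 1 TPM in vehicle 1, 2 and 3, against 11971 to 12005 with 25-HC. Long transcripts were lower in vehicle 1 and most of all in vehicle 2, as described below for each gene. The macrophage label held in part: the summed TPM of 10 macrophage markers was 1601 to 2364 in vehicle and 2343 to 2357 with 25-HC, with Cd68 and Lyz2 high, while Mrc1 and Mertk were listed at 0 in all libraries. Of the 8 macrophage markers tested, Adgre1, Lyz2, Fcgr1, Itgam and Ptprc (62.5%) lay wholly higher with 25-HC, beside 22.6% of all genes tested. Cd68 lay wholly lower by a small margin, beside 8.1%, and limma called none of the 8. Csf1r and Cd14 overlapped, Cd14 with 560, 354 and 548 TPM in vehicle, against 362, 374 and 366 TPM with 25-HC. After dividing each library by 1 median-ratio factor, 3 of the 8 lay wholly higher and 1 wholly lower, beside 18.4% and 18.1% of all genes tested. The 10 osteoblast and stromal markers summed to at most 0.92 TPM in any library, with Ibsp and Dmp1 at 0. Of the dendritic cell markers only Cd83 passed 1 TPM on average (summed TPM of the list 16.6 to 33.2 in vehicle and 34.0 to 36.9 with 25-HC, Clec9a and Ly75 at 0). The 10 neutrophil and lymphocyte markers summed to 3.14 to 6.73 TPM in vehicle and 3.08 to 4.99 TPM with 25-HC, mostly Cd79b at 2.46 to 4.16 TPM, with Ncr1 at 0.

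Of the 10 genes, 7 averaged 1 TPM or more across the libraries and were tested with all 12092 such genes, and none of the 7 passed (limma with Benjamini-Hochberg adjustment, adjusted p = 0.389 to 0.989, none with an unadjusted p under 0.05). Over all genes tested, 0.00827% were called higher with 25-HC and 0% lower, so the absence of calls is shared with nearly every gene. RANK, NFATc1, DC-STAMP and carbonic anhydrase II transcripts were clearly present and varied more among the vehicle libraries than between the groups. Mmp9 was the only tested member without overlap, higher with 25-HC, where 22.6% of all genes tested lay wholly higher and 8.1% wholly lower. Once the libraries were rescaled or corrected for transcript length, Nfatc1 and Ocstamp lay wholly lower with 25-HC in each of 4 such settings, and the separation of Mmp9 was lost in each. In these settings, which all use the same libraries, 17.3% to 18.7% of all genes tested lay wholly lower.

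By mean level over the 6 libraries, Car2 stood first at 641 TPM, followed by Acp5 at 37.8, Dcstamp at 31.4, Nfatc1 at 23.6, Tnfrsf11a at 10.5, Mmp9 at 2.55, Ocstamp at 1.87, Oscar at 0.388, Itgb3 at 0.017 and Calcr at 0. The order of neighbours was not fixed: Acp5 was above Dcstamp and Nfatc1 in vehicle 1, vehicle 2 and the 25-HC libraries, but below both in vehicle 3. Within the 25-HC group the ranges of Acp5 (36.7 to 38.7 TPM), Dcstamp (29.6 to 35.5 TPM) and Nfatc1 (18.7 to 21.8 TPM) did not overlap. Car2 ranked 259th by level among the tested genes, Acp5 2950th and Ocstamp 10805th.

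**Figure D1:**
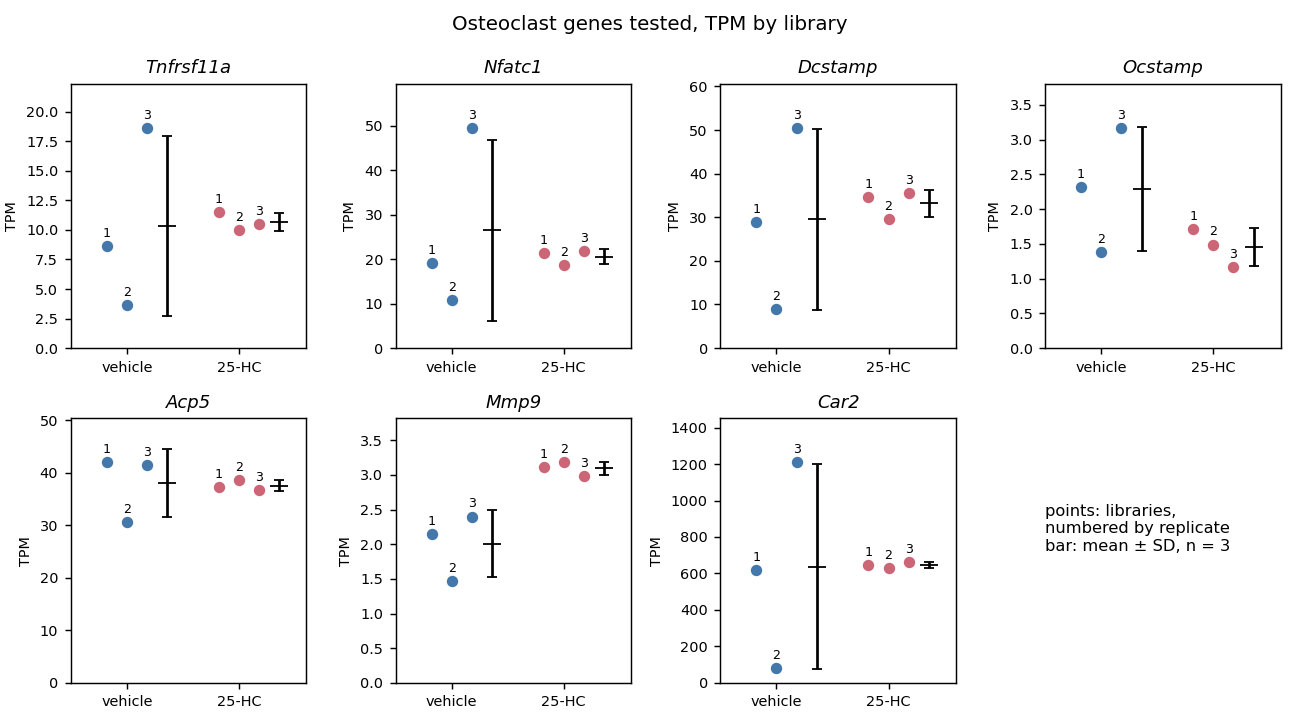
TPM (vertical axis, from 0, scale set per gene) of the 7 tested genes in the 3 vehicle and 3 25-HC libraries, numbered by replicate, with the mean and SD of each group. Vehicle 3 is the highest library and vehicle 2 the lowest for Tnfrsf11a, Nfatc1, Dcstamp and Car2, while the 25-HC points lie between them; the groups of Mmp9 alone do not overlap.

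Tnfrsf11a (ENSMUSG00000026321) encodes RANK, the receptor for RANKL. It measured 8.65, 3.68 and 18.7 TPM in vehicle 1, 2 and 3, against 11.5, 10.0 and 10.5 TPM with 25-HC. Vehicle 3 was above every treated library and vehicle 1 and 2 below every one, so the groups overlapped, with means of 10.3 ± 7.62 TPM in vehicle and 10.7 ± 0.777 TPM with 25-HC (SD, n = 3 each). The log2 difference, 25-HC minus vehicle on log2(TPM + 1), was 0.28 with an SE of 0.54 (limma adjusted p = 0.716). Against vehicle 3 alone, treated cells had 0.573 times as much Tnfrsf11a.

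Oscar (ENSMUSG00000054594), an ITAM-linked co-receptor on osteoclast precursors, was barely detected: its vehicle libraries had 0.26, 0.20 and 0.27 TPM and its 25-HC libraries 0.33, 0.83 and 0.44 TPM. Each treated library was above each vehicle library, at levels under the filter, and 25-HC 2 was the highest. Calcr (ENSMUSG00000023964), the calcitonin receptor of mature osteoclasts, was listed at 0 in all 6 libraries. The receptor genes thus included 1 clearly detected transcript, that of RANK.

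The stretch before the start of Tnfrsf11a and Oscar is shown because these receptors differ in level in the same cells. RefSeq promoter sequences on build GRCm38.p6 were matched by symbol for 4 of the 10 genes (7 starts: Tnfrsf11a and Oscar 1 each, Calcr 2, Acp5 3). The search left out 1 chromosome, so a gene missing here need not have failed to match. The 250 bases before the start are printed 5′ to 3′. The deposited table was made on GRCm39 per the submitters' processing notes and carries no coordinates, so these positions belong to GRCm38.p6 only. Tnfrsf11a lies at chr1:105780473-105780722 on the plus strand and Oscar at chr7:3616158-3616407 on the minus strand; capitals mark a match to the PU.1-type motif GAGGAAG on either strand.
Tnfrsf11a: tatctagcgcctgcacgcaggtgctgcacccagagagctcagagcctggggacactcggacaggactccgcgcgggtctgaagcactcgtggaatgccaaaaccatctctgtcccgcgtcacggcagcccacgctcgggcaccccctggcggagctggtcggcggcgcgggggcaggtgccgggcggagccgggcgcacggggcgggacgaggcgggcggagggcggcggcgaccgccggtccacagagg
Oscar: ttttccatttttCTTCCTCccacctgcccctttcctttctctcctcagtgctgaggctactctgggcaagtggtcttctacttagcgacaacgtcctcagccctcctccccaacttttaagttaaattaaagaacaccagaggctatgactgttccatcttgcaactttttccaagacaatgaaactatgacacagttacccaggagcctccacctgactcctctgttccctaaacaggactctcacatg
The window of Tnfrsf11a is 73.6% G and C and that of Oscar 47.2%. Motifs were searched on both strands, with no overlap among their matches: AP-1 (TGANTCA, present in 6.75% of all 32851 promoter windows of that length), PU.1 (GAGGAAG, 10.6%) and the E-box CACGTG (6.02%). The match in Oscar, which reads CTTCCTC and begins 238 bases before the start, was the only one in the 7 windows. These letters describe the window and no binding was measured.

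Nfatc1 (ENSMUSG00000033016) encodes the transcription factor that acts downstream of RANK as the main switch of osteoclast formation. It measured 19.2, 10.9 and 49.6 TPM in vehicle 1, 2 and 3, against 21.3, 18.7 and 21.8 TPM with 25-HC. Vehicle 3 stood 2.58-fold above vehicle 1 and 4.56-fold above vehicle 2, and vehicle 1 lay inside the treated range. Means were 26.6 ± 20.4 TPM in vehicle and 20.6 ± 1.65 TPM with 25-HC (SD, n = 3 each), with a log2 difference of -0.092 and an SE of 0.54 (limma adjusted p = 0.907). Against vehicle 3 alone the treated level was 0.416 times as high, the lowest such ratio among the tested members.

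Dcstamp (ENSMUSG00000022303) and Ocstamp (ENSMUSG00000027670) encode multipass membrane proteins needed for the fusion of precursors. Dcstamp measured 29.0, 9.04 and 50.5 TPM in the vehicle libraries, against 34.6, 29.6 and 35.5 TPM with 25-HC, so the treated libraries lay between vehicle 1 and vehicle 3. Its log2 difference was 0.45 with an SE of 0.60 (limma adjusted p = 0.599). Ocstamp was low, with 2.32, 1.38 and 3.17 TPM in vehicle, against 1.71, 1.49 and 1.16 TPM with 25-HC. All treated libraries were below vehicle 1 and vehicle 3, and vehicle 2 fell inside the treated range. The Ocstamp means were 2.29 ± 0.895 TPM and 1.45 ± 0.277 TPM (SD, n = 3 each), with a log2 difference of -0.39 and an SE of 0.30 (limma adjusted p = 0.428).

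Itgb3 (ENSMUSG00000020689), the beta chain of the vitronectin receptor by which osteoclasts attach to bone, measured 0.00, 0.01 and 0.03 TPM in the vehicle libraries, against 0.02, 0.01 and 0.03 TPM with 25-HC. It was therefore at the floor of the table in both groups, and no fold is given.

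Acp5 (ENSMUSG00000001348), Mmp9 (ENSMUSG00000017737) and Car2 (ENSMUSG00000027562) encode proteins of resorption: the tartrate-resistant acid phosphatase, a gelatinase, and the carbonic anhydrase that supplies protons for acid secretion. Acp5 measured 41.9, 30.7 and 41.5 TPM in the vehicle libraries, against 37.2, 38.7 and 36.7 TPM with 25-HC. The treated libraries lay between vehicle 2 and the other vehicle libraries, with group means of 38.0 ± 6.41 TPM and 37.5 ± 0.998 TPM (SD, n = 3 each). Its log2 difference was -0.0050 with an SE of 0.24 (limma adjusted p = 0.989).

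Mmp9 measured 2.15, 1.47 and 2.40 TPM in the vehicle libraries, against 3.12, 3.18 and 2.99 TPM with 25-HC. Every treated library was above every vehicle library, and the ratio of means was 1.54, or 1.29 against vehicle 3 alone. The log2 difference was 0.46 with an SE of 0.26 (limma adjusted p = 0.389). The exact two-sided permutation test of 3 against 3 libraries gave p = 0.1 for Mmp9, the smallest it can give, and 0.3 to 1 for the other tested members.

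Car2 measured 618, 83.0 and 1209 TPM in vehicle 1, 2 and 3, against 644, 632 and 663 TPM with 25-HC. The vehicle libraries thus spanned 14.6-fold, the treated ones lay close to vehicle 1, and the means were nearly equal at 637 ± 563 TPM and 646 ± 15.4 TPM (SD, n = 3 each). Its log2 difference of 0.70, with an SE of 0.93 (limma adjusted p = 0.602), had the largest SE of the tested members. Against vehicle 3 alone, Car2 was 0.535 times as high with 25-HC.

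Each vehicle library was next set against the mean of the 25-HC libraries, beside the median of all genes in the same sixth of transcript length. In vehicle 3 the tested members other than Mmp9 were above the treated mean, by 1.23 for Nfatc1, 0.90 for Car2, 0.77 for Ocstamp, 0.75 for Tnfrsf11a, 0.59 for Dcstamp and 0.14 for Acp5 on the log2 scale. The medians of their length classes in that library were only 0.073 to 0.089. In vehicle 1, Nfatc1 was at -0.093, while genes of its length class had a median of -0.62. Tnfrsf11a in the same class was at -0.27 there.

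In vehicle 2, the library with the strongest length trend, Ocstamp was at -0.038 against a class median of -1.54, Nfatc1 at -0.86 and Tnfrsf11a at -1.32 against -1.64, and Acp5 at -0.28 against -0.98. Car2 and Dcstamp went the other way, at -2.95 and -1.76 against a class median of -0.98. Mmp9 was at -0.73 in vehicle 2 and -0.38 in vehicle 1, against -1.54 and -0.48 for its class. Nfatc1, Ocstamp, Tnfrsf11a and Acp5 were thus above their length class in all 3 vehicle libraries, and Car2 and Dcstamp were not. The part of transcript length in these differences was not tested beyond the corrected values given next.

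**Figure D2:**
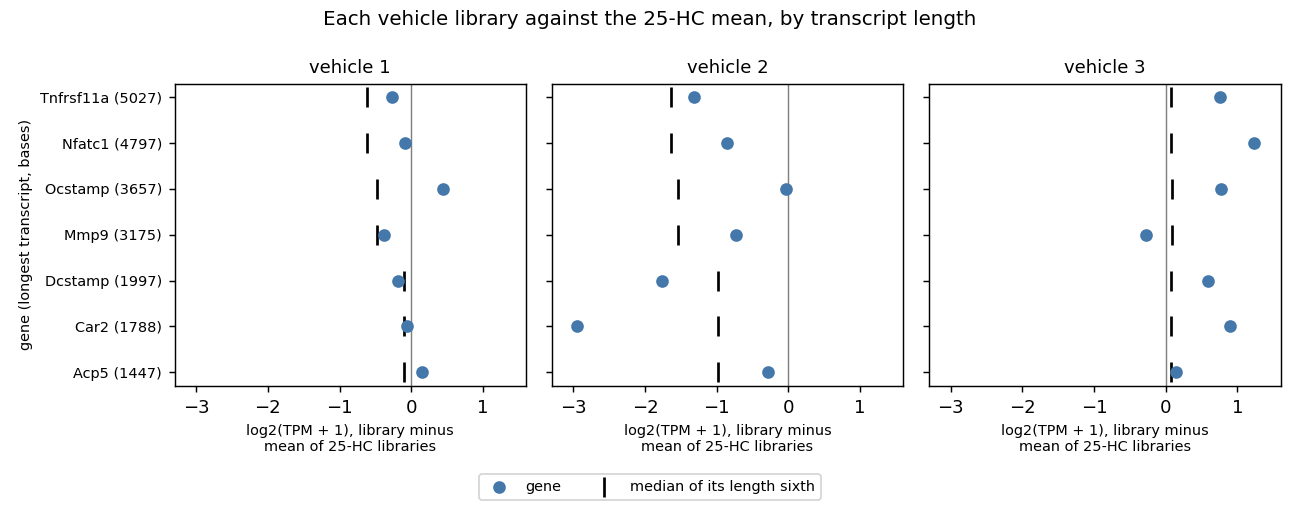
For each vehicle library (panels), the log2(TPM + 1) value minus the mean of the 25-HC libraries (horizontal axis) of the 7 tested genes, ordered by the length of the longest transcript; ticks mark the median of all tested genes in the same sixth of length. Nfatc1, Ocstamp, Tnfrsf11a and Acp5 lie to the right of the tick in every panel, whereas Car2 and Dcstamp lie far to its left in vehicle 2.

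In 4 settings the libraries were brought to a common scale before the same limma fit. Over all tested genes the log2 difference had a median of 0.52 as deposited, 0.013 after median-ratio rescaling (each library divided by 1 factor), 0.020 after quantile normalization, 0.0026 after correction for transcript length and 0.011 after correction for length and GC content, the last added after seeing the data. The median of the 7 tested members went from 0.28 to -0.26, -0.36, -0.25 and -0.14. No member passed in any of the 4.

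Nfatc1 and Ocstamp lay wholly lower with 25-HC in all 4. The log2 difference of Nfatc1 was -0.68, -0.66, -0.82 and -0.76 in these settings, with SEs of 0.20 to 0.28, and limma adjusted p = 0.186 to 0.295. That of Ocstamp was -0.77, -0.98, -1.04 and -0.98, with SEs of 0.20 to 0.24 and limma adjusted p = 0.172 to 0.295. On log2(TPM + 1), Ocstamp in vehicle 2 went from 1.25 as deposited to 2.44 after length correction. That correction takes no account of level, and its effect on low genes such as Ocstamp and Mmp9 was not tested. Tnfrsf11a lay wholly lower in 3 of the 4 (-0.36, -0.46 and -0.54) and overlapped after median-ratio rescaling (-0.26). Acp5 did so in 3 as well (-0.62, -0.37 and -0.25), but not after correction for length and GC content (-0.14).

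The counts of members wholly lower were thus 3, 4, 4 and 3 of 7, and none was wholly higher. Among all genes tested, 18.1%, 17.3%, 18.7% and 17.4% lay wholly lower in the 4 settings and 18.4%, 18.6%, 17.1% and 16.9% wholly higher. Dcstamp, Car2 and Mmp9 overlapped throughout. Dcstamp was at -0.14, -0.069, 0.040 and -0.044, Mmp9 ranged from -0.20 to 0.0070, and Car2 from 0.076 to 0.54 with SEs of 0.58 to 0.82.

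Vehicle 3, the vehicle library whose length classes all had medians of 0.039 to 0.094 above the treated mean, lay above all 25-HC libraries for 6 of 7 tested members and below them for Mmp9, where 45.7% of all genes tested were wholly lower and 28.5% wholly higher with 25-HC. Against vehicle 3 alone, limma called Nfatc1 (log2 difference -1.23, adjusted p = 0.0285), Car2 (-0.90, adjusted p = 0.0120) and Tnfrsf11a (-0.75, adjusted p = 0.0445) lower, where 6.33% of all genes tested were called lower and 4.52% higher. This fit takes the spread from the 3 treated libraries and assumes that the lone vehicle library varies like them, although the vehicle libraries differed far more. Without vehicle 3, the log2 differences of Nfatc1, Car2 and Tnfrsf11a were 0.48, 1.51 and 0.80, and those of Dcstamp and Acp5 were 0.98 and 0.064. Leaving out vehicle 3 thus turned the sign of Nfatc1 and Acp5, and Tnfrsf11a, Dcstamp, Car2 and Mmp9 then lay wholly higher, where 59.5% of all genes tested did and 13.2% lay wholly lower. Leaving out vehicle 2 turned the sign of Car2 (-0.42), Tnfrsf11a (-0.24) and Dcstamp (-0.20), and Ocstamp and Acp5 then lay wholly lower (-0.61 and -0.15), where 16.9% of all genes tested did and 23.6% lay wholly higher. None of these fits with 1 vehicle library left out called a member (limma adjusted p = 0.119 to 0.863).

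**Figure D3:**
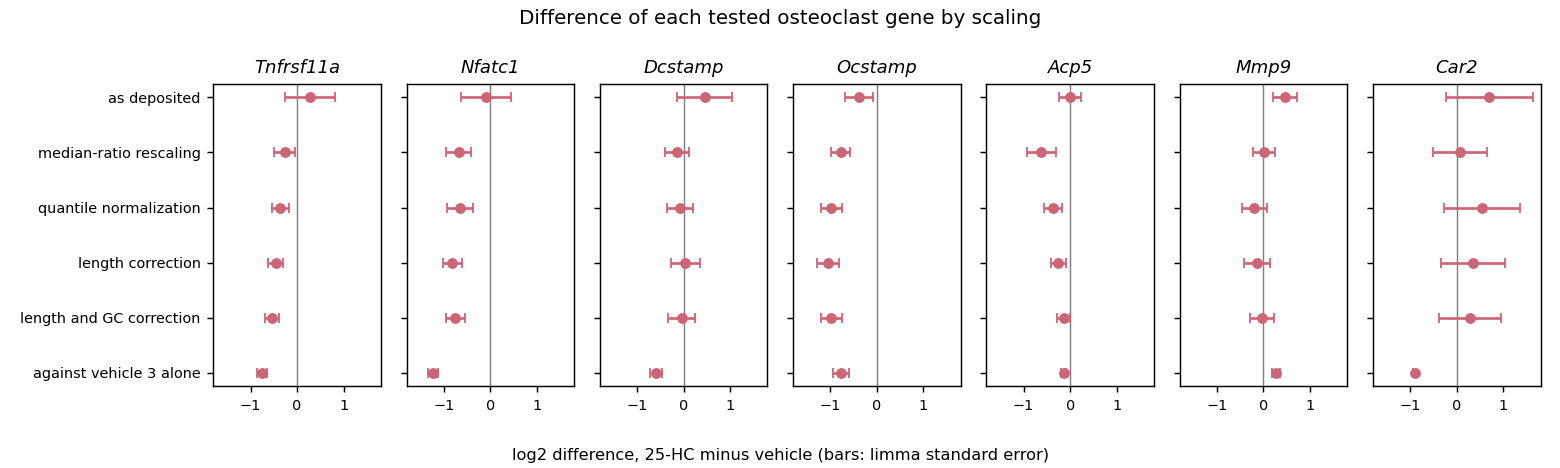
Log2 difference, 25-HC minus vehicle, of the 7 tested genes (panels) as deposited, in 4 rescaled settings and against vehicle 3 alone, with bars for the limma standard error. The points of Ocstamp, Nfatc1 and Acp5 are below 0 in every row. The bars of Nfatc1 and Acp5 span 0 as deposited, and that of Acp5 also does after length and GC correction. The bars of Dcstamp, Car2 and Mmp9 span 0 in each rescaled row.

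Genes around these members were read from 7 lists covering the osteoclast pathway, with 124 entries, of which 106 passed the filter on low values. None of the 106 passed the limma test (adjusted p of at least 0.389, 17 with an unadjusted p under 0.05). As deposited, 41 lay wholly higher with 25-HC and none wholly lower, beside 22.6% and 8.1% of all genes tested. Without vehicle 2, 41 were wholly higher and 13 wholly lower (23.6% and 16.9% of all genes tested), and without vehicle 3, 85 were wholly higher and 1 lower (59.5% and 13.2%). Leaving out a vehicle library can only keep or raise such counts, since a gene above all vehicle libraries is also above those kept. The filter takes the mean of all 6 libraries, and a gene that passes it through 1 group is favoured, so these counts are a description; the counts with a library left out were added after seeing the data. The macrophage markers Adgre1, Lyz2, Fcgr1, Itgam and Ptprc were wholly higher as well, and their part in the counts of the lists was not tested.

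The list of acid secretion and bone matrix degradation had the highest share wholly higher, 13 of 17 tested genes (76.5%), with a median log2 difference of 1.25 against 0.52 over all genes. After length correction 13 of 17 lay wholly higher and none lower, with a median of 0.51, where 17.1% of all genes lay wholly higher. They were not all the same genes, since Ctsd, given below, then overlapped. After correction for length and GC content 11 of 17 lay wholly higher (64.7%, against 16.9% of all genes), with a median of 0.47. On the values as deposited, the count was 13 without vehicle 2 (23.6% of all genes) and 16, with 1 gene wholly lower, without vehicle 3 (59.5% of all genes). Neither count could fall below 13, since fewer vehicle libraries only ease the condition. The 3 most abundant genes of this list were lysosomal cathepsins. Ctsb measured 1205, 421 and 1317 TPM in the vehicle libraries, against 2040, 2129 and 2061 TPM with 25-HC, wholly higher also after length correction. Ctsd was at 592 ± 28.7 TPM and 858 ± 21.4 TPM (SD, n = 3 each), even among the vehicle libraries, but overlapped after length correction. Ctsl was at 195 ± 160 TPM and 571 ± 28.9 TPM, or 1.63-fold above vehicle 3. Ctsk, the collagen-degrading cathepsin that marks osteoclasts, chosen here after its values were seen, was low and overlapped, with 1.59, 0.27 and 2.65 TPM in vehicle, against 1.63, 2.09 and 2.17 TPM with 25-HC.

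RANK signalling genes lay wholly higher in 4 of 17 cases (23.5%), near the 22.6% of all genes. After length correction 3 lay higher and 3 lower (17.1% and 18.7% of all genes). Csf1r, the receptor for M-CSF that precursors need to survive, measured 103, 41.2 and 262 TPM in the vehicle libraries, against 183, 153 and 171 TPM with 25-HC, again with vehicle 3 highest. Nfkb1, a subunit of NF-kB, was wholly higher, also after length correction (0.98), with 38.6, 3.99 and 72.9 TPM in vehicle, against 78.0, 75.2 and 77.6 TPM with 25-HC. The ligand gene Tnfsf11 was listed at 0 in all libraries, as was its decoy receptor Tnfrsf11b (both named after their values were seen).

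In the list of ITAM co-stimulation and calcium, 7 of 17 genes lay wholly higher (41.2%, against 22.6% of all genes). These 7 include Pirb, an inhibitory receptor gene named after its values were seen, which overlapped after length correction. After that correction 7 lay higher and 2 lower (17.1% and 18.7% of all genes). Tyrobp, the DAP12 adaptor, was abundant and even, averaging 853 ± 77.3 TPM in vehicle, against 904 ± 20.2 TPM with 25-HC. Fcer1g, the other ITAM adaptor, was at 410 ± 32.2 TPM and 487 ± 13.5 TPM, without overlap as deposited or after length correction (0.29), but with overlap and a log2 difference of -0.38 after median-ratio rescaling. Trem2, a DAP12-linked receptor, measured 228, 195 and 225 TPM in the vehicle libraries, against 377, 368 and 371 TPM with 25-HC. That separation of Trem2 was lost after length correction (log2 difference 0.056).

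Of the transcription factors, 3 of 13 lay wholly higher as deposited (23.1%), near the 22.6% of all genes. After length correction 3 lay higher and 4 lower (17.1% and 18.7% of all genes). The 3 most abundant, Spi1 (PU.1), Junb and Jund, overlapped as deposited. Spi1 measured 241, 134 and 231 TPM in the vehicle libraries, against 194, 205 and 201 TPM with 25-HC, with vehicle 2 lowest. Junb had 122, 8.23 and 199 TPM in vehicle, against 130, 130 and 129 TPM with 25-HC. Jund was at 106 ± 34.7 TPM and 90.6 ± 8.09 TPM. After length correction Spi1 and Jund were wholly lower with 25-HC (-0.39 and -0.49).

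Genes that restrain osteoclast formation lay wholly higher in 3 of 13 cases (23.1%), near the 22.6% of all genes. After length correction 1 lay wholly higher and 3 wholly lower (17.1% and 18.7% of all genes). Lilrb4a, an inhibitory receptor, averaged 58.1 ± 6.08 TPM in vehicle, against 74.7 ± 3.66 TPM with 25-HC, without overlap, but overlapped after length correction. Id1, an inhibitor of helix-loop-helix factors, had 65.5, 23.0 and 65.5 TPM in vehicle, against 67.4 ± 3.70 TPM with 25-HC. Nr1h2, the oxysterol receptor LXR beta, had 49.0, 29.8 and 59.2 TPM in vehicle, against 48.7 ± 2.23 TPM with 25-HC, and lay wholly lower after length correction (-0.28).

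Genes tied to cell fusion, other than Dcstamp and Ocstamp, lay wholly higher in 5 of 12 cases (41.7%, against 22.6% of all genes). After length correction 4 lay wholly higher and 1 wholly lower (17.1% and 18.7% of all genes). The chemokine gene Ccl3 had 2414, 639 and 2969 TPM in vehicle, against 2924 ± 47.9 TPM with 25-HC, with overlap as deposited and none after length correction (0.83). It overlapped after median-ratio rescaling (0.18) and after correction for length and GC content (0.73). Ccl2, another chemokine gene, had 391, 44.6 and 503 TPM in vehicle, against 550 ± 10.3 TPM with 25-HC, wholly higher as deposited and after length correction. Cd9, a tetraspanin, measured 307, 34.0 and 442 TPM in the vehicle libraries, against 359, 357 and 352 TPM with 25-HC, between vehicle 1 and vehicle 3 as Dcstamp and Car2 were.

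Adhesion and sealing zone genes lay wholly higher in 6 of 17 cases (35.3%, against 22.6% of all genes). After length correction 6 lay wholly higher and 5 wholly lower (17.1% and 18.7% of all genes). Spp1, osteopontin, measured 716, 90.5 and 998 TPM in the vehicle libraries, against 1201, 1217 and 1200 TPM with 25-HC, 1.21-fold above vehicle 3. The small GTPase genes overlapped as deposited: Rac2 was at 468 ± 160 TPM and 424 ± 11.4 TPM, and Rac1 at 142 ± 18.6 TPM and 133 ± 9.19 TPM (SD, n = 3 each). After length correction Rac2 was wholly lower with 25-HC (-0.66).

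**Figure D4:**
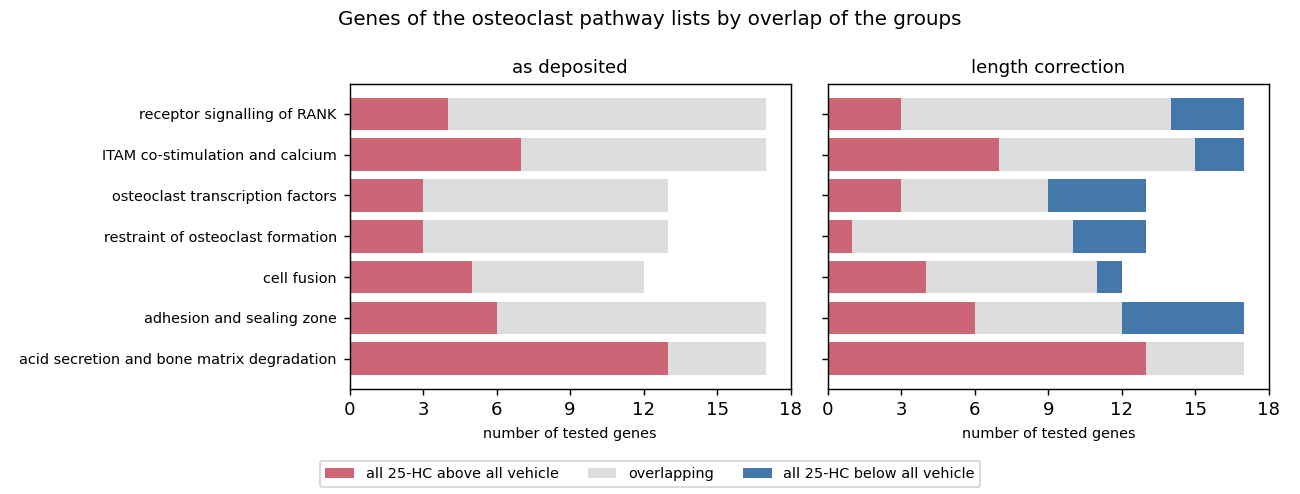
Number of tested genes (horizontal axis) in each of the 7 pathway lists whose 25-HC libraries all lay above, all below, or overlapped with the vehicle libraries, as deposited (left) and after length correction (right). Acid secretion and bone matrix degradation has 13 of 17 genes wholly higher in both panels, though not all the same genes, beside 22.6% and 17.1% of all genes tested. No list has a gene wholly lower as deposited, beside 8.1% of all genes tested. After length correction every list except acid secretion and bone matrix degradation has 1 to 5 genes wholly lower, beside 18.7% of all genes tested.

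For the 5 members with a mean of at least 10 TPM, the genes with the most similar pattern were found by Pearson r of log2(TPM + 1) over the 6 libraries, as a description. The patterns of Car2 and Dcstamp were common, with 2673 and 2546 genes at an r of at least 0.95. Umps, Ank and Chtop came first for Car2 (r = 0.9997, 0.9996 and 0.9996), and Smarca4, Slc29a2 and Gnpat for Dcstamp (0.9994, 0.9994 and 0.9991). Ank, a pyrophosphate transporter gene, measured 58.3, 6.95 and 105 TPM in the vehicle libraries, against 59.6, 58.7 and 60.0 TPM with 25-HC.

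Tnfrsf11a shared its pattern at that level with 736 genes, led by Ddx11 and Rabgef1 (r = 0.9989 each) and an unnamed assembled locus, and Acp5 with 303, led by Rhno1, Sarnp and Them6 (0.9987, 0.9973 and 0.9964). Nfatc1 had the fewest, 60, led by Psd4, Ctnnal1 and Hk2 (0.9932, 0.9930 and 0.9898). Hk2, a hexokinase gene, measured 21.9, 16.4 and 33.7 TPM in the vehicle libraries, against 24.6, 22.2 and 23.7 TPM with 25-HC, highest in vehicle 3 as Nfatc1 was. All these r come from the same 6 libraries and share the scatter of the vehicle group.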

How the data were processed

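The values are TPM as deposited by the authors in a single table, rounded to 2 decimals; HISAT2, StringTie, RSEM and build GRCm39 are named in the submitters' processing notes without versions or roles. The annotation and strand mode were not given in the sources used here, so reads of overlapping genes cannot be told apart, and 11 empty columns were ignored. Libraries were made with a TruSeq RNA kit, per the labels' protocols. Groups came from the sample titles.

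log2(TPM + 1) of the 12092 genes averaging 1 TPM or more was fitted with limma 3.58.1 (R 4.3.3; two-sided, moderated with a variance trend), with Benjamini-Hochberg adjustment over all of them and a threshold of 0.05; it was tested on simulated data. Log2 differences understate changes of low genes, and folds are ratios of mean TPM. "Wholly higher" or "wholly lower" means that all 25-HC libraries lay beyond all vehicle libraries. Length correction subtracted a loess trend (span 0.75, degree 2) of each library's deviation from the gene mean on log2 transcript length, taken from GENCODE M21 (GRCm38), where 11132 tested genes (92.1%) matched by ID; the further step did the same with GC content. Members and lists were chosen with earlier results of these data known. Named genes were the members, any called list gene, and the 3 most abundant of each list (1 of these is not reported here); for likeness the 3 genes of highest r were named, and from the marker lists those tested or at 0 that describe each list, picked once values were known, as were the others so marked. Python 3.11.15, pandas 2.3.3, numpy 2.4.6 and matplotlib 3.10.9 were used. Alternatives were other pseudocounts, filters, scalings and moderation, a replicate block and left-out libraries.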

Additional observations from a re-analysis of the deposited data

How the results depend on the processing

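The number of members called, 0 in the fit given, was 3 against vehicle 3 alone and 0 elsewhere. Over all genes, 1 was called higher and 0 lower. These counts were 0 and 0 with a pseudocount of 5, with no filter, with a mean of at least 5 TPM and with a replicate block, 1 and 1 with median-ratio factors, 4 and 1 with quantile normalization, 16 and 3 after length correction, 14 and 0 after length and GC correction, 547 and 765 against vehicle 3 alone, and 0 to 671 and 0 to 51 when leaving out 1 library each (671 and 51 without vehicle 3, 9 and 4 without vehicle 2). The members wholly separated, 1 as deposited, were 2 with no filter (Oscar added), 0 with a mean of at least 5 TPM, 3, 4, 4 and 3 in the 4 rescaled settings, 7 against vehicle 3 alone (where 45.7% of all genes were wholly lower and 28.5% wholly higher) and 1 to 4 with 1 library left out. The median of the tested members (0.28) was -0.26, -0.36, -0.25 and -0.14 in the rescaled settings, -0.75 against vehicle 3 alone and -0.24 to 0.55 with 1 library left out. Signs turned for Tnfrsf11a (-0.26, -0.36, -0.46 and -0.54 rescaled, -0.75 against vehicle 3 alone, -0.24 to 0.80 with 1 library left out), Dcstamp (-0.14 and -0.069 after median-ratio and quantile scaling, -0.044 with length and GC, -0.59 against vehicle 3 alone, -0.20 to 0.98), Mmp9 (-0.20, -0.14 and -0.039 after quantile, length, and length and GC), Car2 (-0.90 against vehicle 3 alone, -0.42 to 1.51), Nfatc1 (-0.57 to 0.48 with 1 library left out) and Acp5 (-0.15 to 0.071). The cause of these turns was not tested. Ocstamp was lower in all 17 other settings that tested it (-1.04 to -0.17). These settings reuse the same libraries. Those that change only the filter, block or moderation cannot alter the difference, so the count is not one of separate results. The replicate block left every member's difference as it was and called 0 members. Deviations of same-numbered libraries from their group means had r = -0.013, 0.056 and 0.030 for numbers 1, 2 and 3. With the vehicle libraries so far apart, these r cannot tell whether the numbers mark pairs. TPM keep no depth, and Oscar, Itgb3 and Calcr were too low to test.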

Other observations

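Genes in this part were chosen after their values were seen. Rcan1, a calcineurin inhibitor gene known as an NFAT target, measured 19.7, 7.54 and 29.4 TPM in vehicle 1, 2 and 3, against 14.2, 14.8 and 16.3 TPM with 25-HC; it overlapped as deposited and lay wholly lower with 25-HC after length correction (log2 difference -0.60). Fosl2, an AP-1 subunit, measured 17.2, 9.66 and 31.0 TPM in the vehicle libraries, against 16.1, 14.9 and 15.2 TPM with 25-HC, with the same 2 outcomes (-0.94 after length correction). Rbpj, a Notch effector that limits osteoclast formation, measured 9.08, 3.0 and 29.8 TPM in the vehicle libraries, against 42.1, 36.3 and 42.4 TPM with 25-HC, wholly higher as deposited and after length correction (1.18).

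Car13, another cytosolic carbonic anhydrase gene, measured 9.40, 4.50 and 15.1 TPM in the vehicle libraries, against 24.1, 23.9 and 24.5 TPM with 25-HC, wholly higher, while Car2 overlapped. The V-ATPase subunit gene Atp6v1a measured 31.9, 3.78 and 97.8 TPM in the vehicle libraries, against 130, 115 and 125 TPM with 25-HC. Tcirg1, which encodes the a3 subunit of the same pump, measured 218, 288 and 206 TPM in the vehicle libraries, against 208, 213 and 204 TPM with 25-HC, highest in vehicle 2, where Atp6v1a was lowest.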
